A study of Mus musculus with 12 samples.

Results

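Among 26121 genes counted in mouse duodenum in both deposited tables, 26 stood higher on a high-fat diet than on chow and lower after the pregnane X receptor (PXR) ligand PCN than after its vehicle. They were chosen by their measured values. In counts per 1000000 of the library total (CPM), every HFD library had to exceed every Chow library, and every HFD PCN library had to lie below every HFD Vehicle library. The mean had to reach 1 CPM in HFD and in HFD Vehicle. The log2 ratio of the means, each with 0.5 CPM added, had to be at least 1.5-fold up on the diet and 1.5-fold down after PCN. Predicted genes, mitochondrial genes, immunoglobulin segments, heat shock genes, collagens, C1q genes and genes whose symbols end in Rik were dropped by their symbols. Because these 2 contrasts chose the members, their values there are descriptions and support nothing.

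The mice were C57BL/6N, with no genetic change in the labels, and 3 libraries were made per group. Chow mice ate regular chow and HFD mice a high-fat diet, from 6 weeks of age and for 18 weeks, and neither group is labelled with an injection. HFD Vehicle and HFD PCN mice ate the high-fat diet and were injected into the peritoneum once a day for 4 days, with 30% DMSO in corn oil or with PCN (pregnenolone 16α-carbonitrile) at 50 mg/kg. The libraries carry single numbers (Chow 8, 17 and 19, HFD 4, 30 and 38, HFD Vehicle 23, 50 and 55, HFD PCN 5, 11 and 27), and every set of 3 values below follows that order. The labels name no animal or culture behind each number, so p-values measure the spread between these libraries, which may be technical.

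PXR is a nuclear receptor of liver and intestine that binds drugs, steroids and bile acids and switches on genes of drug oxidation, conjugation and export, and PCN is its classical rodent ligand. The duodenal wall holds an absorptive epithelium over a core of fibroblasts, blood and lymph vessels, smooth muscle, immune cells and the enteric nervous system. In such bulk tissue, fewer cells of a type and less RNA per cell cannot be told apart. By known role the members are grouped here as signalling genes of vessels and growth factor receptors, matrix and adhesion genes, synaptic and axonal genes, actin and small GTPase regulators, and enzymes and other membrane proteins.

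Library totals ran from 4676718 counts in HFD Vehicle 55 and 4925123 in HFD 4 to 20684369 in HFD PCN 5. HFD Vehicle 23 stood apart in mitochondrial rRNA, with 33.6% of its counts against 8.69% to 19.2% in the other 11 libraries. Hsp90aa1, a heat shock chaperone, reached 1427 CPM there and 1453 CPM in HFD Vehicle 50, and 60.6 to 465 CPM in all others. The extraction protocol names liver, whereas the tissue label is duodenum: Alb, the main plasma protein of hepatocytes, stood at 0.104 to 1.11 CPM and Vil1, a brush border protein of enterocytes, at 912 to 2489 CPM. The known PXR target genes of a list of 21 had a median log2 fold change of 1.70 after PCN, 21 of 21 were positive, and 7 passed edgeR's test. None of the 26 members is on that list.

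At the level minimum and with a kept symbol there were 12479 genes. Of these, 154 (1.23%) met the diet side and 600 (4.81%) met the PCN side, so the 26 members are 16.9% of the first set and 4.33% of the second. The mirrored rule, lower on the diet and higher after PCN, was met by 55 genes. Only 1 gene was higher in both contrasts, and 6 were lower in both. Another 6 genes met every value but were dropped by symbol, among them the collagens Col18a1, Col4a1, Col5a2 and Col6a1, which are named here after their values were seen. Without Chow 17, HFD 38, PCN 27 or Vehicle 55 the rule kept 77, 75, 59 or 45 genes, and without HFD 4 it kept 18, of which 13 were members.

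**Figure D1:**
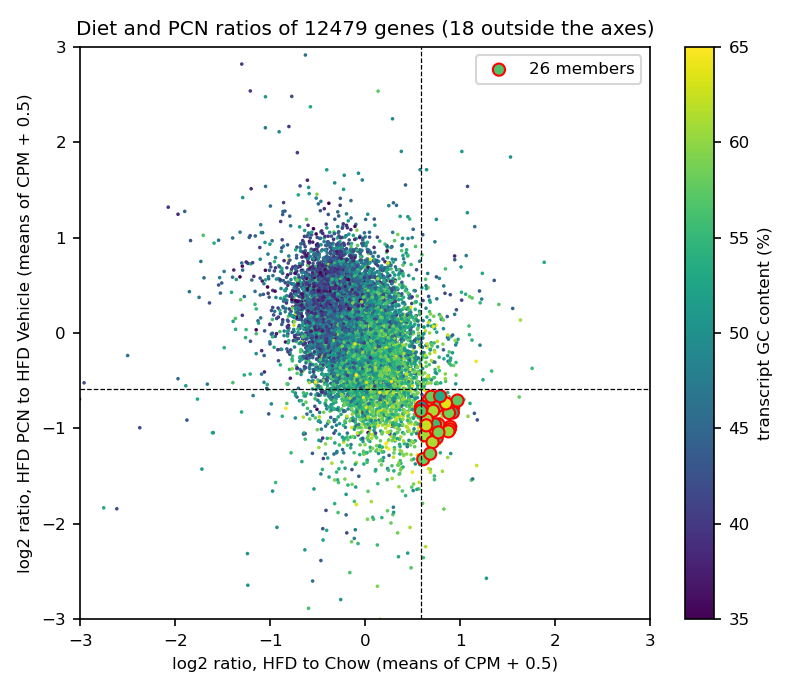
Log2 ratio of mean CPM (0.5 added) for HFD over Chow (horizontal axis) and HFD PCN over HFD Vehicle (vertical axis), 1 point per gene, coloured by the GC percent of the gene's transcript. The 26 members occupy the lower right, past the dashed limits at 1.5-fold, and 18 genes lie outside the axes.

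Notch4, a Notch receptor known from vascular endothelium (ENSMUSG00000015468, GRCm38 chromosome 17, 34564268 to 34588503, plus strand), stood at 7.27, 9.03 and 6.14 CPM in Chow and at 15.4, 12.2 and 10 CPM in HFD. In the injected mice 13.7, 9.18 and 10.3 CPM (HFD Vehicle) compare with 3.53, 3.69 and 6.93 CPM (HFD PCN). The lowest HFD library exceeded the highest Chow library by less than 1 CPM, whereas the vehicle and PCN libraries were further apart. The edgeR log2 fold change was 0.92 (SE 0.27) for HFD against Chow and -1.40 (SE 0.34) for HFD PCN against HFD Vehicle. Its upstream bases are printed because it kept its place in the rule after the GC correction described below, and they hold none of the motifs marked in the next promoters.
Notch4, chr17:34564045-34564267, plus strand, GRCm38.p6: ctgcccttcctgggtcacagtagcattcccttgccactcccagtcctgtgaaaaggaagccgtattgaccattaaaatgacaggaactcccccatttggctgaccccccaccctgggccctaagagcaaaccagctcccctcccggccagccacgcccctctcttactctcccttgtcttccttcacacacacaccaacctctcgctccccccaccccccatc

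Fgfr1, a fibroblast growth factor receptor (ENSMUSG00000031565, chromosome 8, 25513654 to 25575718), stood at 7.51, 9.03 and 7.49 CPM in Chow, 17.1, 13.7 and 10.3 in HFD, 16.3, 13.4 and 10.5 in HFD Vehicle, and 5.51, 6.26 and 8.21 in HFD PCN. HFD and HFD Vehicle spanned nearly the same range, and HFD PCN overlapped Chow. Its log2 fold changes were 0.94 (SE 0.27) and -1.16 (SE 0.31).

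Rasip1, a Ras-interacting protein of vessel lumen formation (ENSMUSG00000044562, chromosome 7, 45627488 to 45639093), stood at 0.848, 2.80 and 1.28 CPM in Chow, 2.84, 4.05 and 3.23 in HFD, 4.78, 3.44 and 3.42 in HFD Vehicle, and 1.98, 1.63 and 2.77 in HFD PCN. Chow 17 came within 0.1 CPM of the lowest HFD library. Arhgef15, a guanine nucleotide exchange factor of endothelium (ENSMUSG00000052921, chromosome 11, 68943155 to 68957480), stood at 1.09, 2.02 and 1.69 CPM in Chow, 5.08, 3.08 and 2.33 in HFD, 4.33, 2.66 and 2.78 in HFD Vehicle, and 0.822, 1.69 and 2.56 in HFD PCN. PCN 27 nearly reached the lowest vehicle library. Rapgef3, the cAMP-activated Rap exchange factor EPAC, lay closest to the fold limit (0.589 and -0.783 as ratios of the rule), at 6.66, 6.39 and 6.68 CPM in Chow, 12.4, 10.2 and 7.83 in HFD, 11.4, 8.61 and 12.6 in HFD Vehicle, and 5.56, 5.76 and 7.04 in HFD PCN. The 10 endothelial marker genes of a list had median log2 fold changes of 0.23 and -0.06, with none at 0 reads and none passing edgeR's test. Their summed level ran from 90.1 to 126 CPM in Chow, 118 to 138 in HFD, 84.3 to 172 in HFD Vehicle and 90.7 to 134 in HFD PCN. Flt1 (0.80 and -0.04), Eng (0.87 and -0.24), Pecam1 (0.37 and 0.15) and Vwf (0.21 and -0.64) are log2 fold changes of single markers, in the order diet then PCN. Cdh5 (0.43 and 0.05), Kdr (0.21 and -0.08) and Tek (0.25 and -0.24) are also on the list. So are Emcn (-0.01 and 0.59), Lyve1 (0.02 and -0.04) and Prox1 (0.17 and -0.12). The part of vessel content in the members' values was not tested.

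Emilin1, a glycoprotein of elastic fibres (ENSMUSG00000029163, chromosome 5, 30913402 to 30921277), stood at 16.5, 22.3 and 14.5 CPM in Chow, 37.2, 27.2 and 24.1 in HFD, 24.7, 25.3 and 29.3 in HFD Vehicle, and 11.9, 10.4 and 22.1 in HFD PCN. HFD PCN 27 lay close to Chow 17 while the other PCN libraries lay below every Chow library. Log2 fold changes were 0.91 (SE 0.25) and -0.96 (SE 0.26). Mrc2, a receptor that takes up collagen fragments (ENSMUSG00000020695, chromosome 11, 105292643 to 105351139), stood at 1.33, 2.18 and 1.75 CPM in Chow, 4.87, 3.13 and 2.99 in HFD, 4.39, 3.18 and 3.64 in HFD Vehicle, and 1.5, 1.44 and 2.67 in HFD PCN. No library of the higher groups fell below 2.99 CPM.

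Bcam, a laminin-binding adhesion molecule, had means of 3.74 ± 1.17 CPM in Chow, 6.06 ± 1.61 in HFD, 9.15 ± 1.41 in HFD Vehicle and 4.09 ± 0.519 in HFD PCN (SD, n = 3). Itga2b, the platelet integrin subunit, stood at 1.33, 2.49 and 2.02 CPM in Chow, 2.84, 4.27 and 2.63 in HFD, 4.78, 9.18 and 5.35 in HFD Vehicle, and 1.40, 2.0 and 3.41 in HFD PCN. These 2 genes were the members in which every vehicle library exceeded every HFD library, an order found in 4.62% of the 12479 genes. The fibroblast and matrix list had median log2 fold changes of 0.27 on the diet and -0.59 after PCN over 13 measured genes, and the smooth muscle list 0.22 and -0.64 over 10, with 0 genes of either list passing edgeR's test.

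Shank3, a scaffold of excitatory synapses (ENSMUSG00000022623, chromosome 15, 89499623 to 89560261), stood at 9.08, 11.2 and 8.37 CPM in Chow, 17.1, 15.9 and 12.7 in HFD, 22.2, 11.6 and 13.3 in HFD Vehicle, and 5.90, 7.69 and 9.70 in HFD PCN. Nlgn2, a neuroligin of inhibitory synapses (ENSMUSG00000051790, chromosome 11, 69823122 to 69837784), stood at 4.84, 4.36 and 4.05 CPM in Chow, 12, 8.43 and 5.20 in HFD, 10.4, 6.26 and 5.56 in HFD Vehicle, and 2.71, 3.69 and 3.73 in HFD PCN. In 3 members, among them Nlgn2 and Inf2, every PCN library lay below every Chow library, an order seen in 12.2% of all genes.

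Rgs9, a GTPase activator known from photoreceptors and striatum (ENSMUSG00000020599, chromosome 11, 109225355 to 109298129, minus strand), stood at 5.69, 8.88 and 6.21 CPM in Chow, 13.8, 9.45 and 8.96 in HFD, 10.9, 9.65 and 9.41 in HFD Vehicle, and 4.50, 5.5 and 6.93 in HFD PCN. The margin between Chow 17 and HFD 38 was under 0.1 CPM. Trim46, a microtubule organiser of the axon initial segment (chromosome 3, 89234177 to 89246309), stood at 0.727, 0.779 and 0.607 CPM in Chow, 2.03, 1.57 and 1.08 in HFD, 2.28, 1.51 and 1.92 in HFD Vehicle, and 0.338, 0.813 and 0.853 in HFD PCN. Its values rest on 5 to 41 reads per library. The enteric neuron and glia list had median log2 fold changes of 0.11 over 7 measured genes on the diet and -0.73 over 8 after PCN, and its summed level overlapped in all 4 groups (17.9 to 21.3, 18.8 to 22.5, 18.6 to 27.9 and 18.9 to 21 CPM). Rgs9 was the member of lowest GC content, and its upstream bases follow with matches to GGGCGG or CCAAT on either strand in capitals.
Rgs9, chr11:109298182-109298431, minus strand, GRCm38.p6: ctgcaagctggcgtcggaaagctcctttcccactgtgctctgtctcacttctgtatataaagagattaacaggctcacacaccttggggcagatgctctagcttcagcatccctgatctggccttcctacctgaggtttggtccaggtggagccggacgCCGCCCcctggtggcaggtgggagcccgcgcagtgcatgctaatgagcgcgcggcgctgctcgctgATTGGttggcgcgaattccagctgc

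Fhod1, a formin that assembles actin filaments (ENSMUSG00000014778, chromosome 8, 105329163 to 105347953), stood at 17.9, 15.6 and 14.8 CPM in Chow, 35.1, 31.6 and 24.3 in HFD, 42.9, 22.8 and 17.7 in HFD Vehicle, and 9.67, 13.4 and 17.6 in HFD PCN. HFD Vehicle 55 and HFD PCN 27 almost met. On the diet it had the lowest adjusted p of the members in edgeR's test (0.164), at a log2 fold change of 1.08 (SE 0.23). Inf2, another formin (ENSMUSG00000037679, chromosome 12, 112588784 to 112615557), stood at 7.39, 8.72 and 7.22 CPM in Chow, 15.2, 11.8 and 10.5 in HFD, 13.1, 7.46 and 10.7 in HFD Vehicle, and 4.74, 4.44 and 6.82 in HFD PCN. HFD Vehicle 50 lay inside the Chow range. Arhgap22, a Rac GTPase activator, stood at 0.605, 0.934 and 1.15 CPM in Chow, 2.44, 1.78 and 1.43 in HFD, 1.44, 2.45 and 1.5 in HFD Vehicle, and 0.677, 0.626 and 0.746 in HFD PCN. Nckipsd, an SH3 adaptor of actin regulation, had means of 4.77 ± 0.815, 8.05 ± 2.0, 7.14 ± 1.79 and 4.30 ± 0.671 CPM in the 4 groups (SD, n = 3).

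Camkk1, a kinase that activates calmodulin-dependent kinases (ENSMUSG00000020785, chromosome 11, 73019008 to 73042073, plus strand), stood at 3.03, 4.36 and 2.56 CPM in Chow, 7.11, 5.94 and 4.78 in HFD, 5.28, 6.05 and 3.64 in HFD Vehicle, and 1.60, 1.81 and 2.77 in HFD PCN. Chow 17 lay above HFD Vehicle 55, and all other libraries of Chow and PCN lay below the vehicle range. Log2 fold changes were 1.02 (SE 0.32) and -1.44 (SE 0.36). Camkk1 stayed a member when any 1 of the 12 libraries was left out, as 6 members did, and also after the GC correction. Leaving out a library cannot undo the separation of groups in a member, so only the fold and level limits could fail there. Its upstream bases follow, with GGGCGG and CCAAT on either strand in capitals.
Camkk1, chr11:73018738-73018987, plus strand, GRCm38.p6: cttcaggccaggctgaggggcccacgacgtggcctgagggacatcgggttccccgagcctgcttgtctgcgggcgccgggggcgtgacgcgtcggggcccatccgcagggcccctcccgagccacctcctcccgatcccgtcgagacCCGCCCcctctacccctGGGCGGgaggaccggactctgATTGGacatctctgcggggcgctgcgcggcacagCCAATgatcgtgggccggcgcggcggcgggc

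Eva1b, a membrane protein (ENSMUSG00000050212, chromosome 4, 126147744 to 126149875), stood at 1.09, 2.34 and 1.55 CPM in Chow, 4.47, 3.35 and 2.75 in HFD, 4.56, 3.34 and 3.21 in HFD Vehicle, and 1.5, 0.813 and 2.56 in HFD PCN. It had the largest value of the smaller of its 2 log2 ratios among the 26 (0.90 on the diet and -0.98 after PCN). Gcgr, the glucagon receptor, stood at 0.242, 0.467 and 0.337 CPM in Chow, 0.812, 1.67 and 1.02 in HFD, 1.11, 1.25 and 1.28 in HFD Vehicle, and 0.483, 0.313 and 0.853 in HFD PCN. These rest on 2 to 31 reads per library. Dzip1l, a protein of the ciliary transition zone, stood at 1.70, 1.25 and 1.69 CPM in Chow, 4.67, 2.59 and 2.87 in HFD, 3.94, 3.13 and 1.71 in HFD Vehicle, and 1.26, 1.63 and 1.39 in HFD PCN. HFD Vehicle 55 lay close to the highest Chow and PCN libraries.

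Ano8, an anoctamin at contacts of endoplasmic reticulum and plasma membrane, stood at 5.09, 5.61 and 5.73 CPM in Chow, 13.2, 8.43 and 7.23 in HFD, 7.44, 7.82 and 6.63 in HFD Vehicle, and 3.14, 3.75 and 5.33 in HFD PCN. HFD 4 was well above the other libraries. Azin2, an antizyme inhibitor of polyamine control, had means of 0.968 ± 0.242, 1.84 ± 0.106, 1.68 ± 0.112 and 0.837 ± 0.489 CPM in Chow, HFD, HFD Vehicle and HFD PCN (SD, n = 3). Renbp, an enzyme that interconverts N-acetylhexosamines, had means of 2.06 ± 0.917, 3.93 ± 0.661, 3.31 ± 1.25 and 1.91 ± 0.616 CPM (SD, n = 3). For Renbp the spread within HFD Vehicle was nearly as large as the gap to HFD PCN. Strc, stereocilin of the sensory hair bundle, stood at 1.21, 1.25 and 0.540 CPM in Chow, 2.44, 1.46 and 1.37 in HFD, 1.33, 1.36 and 2.14 in HFD Vehicle, and 0.532, 0.813 and 0.746 in HFD PCN. Just inside the limits were Rapgef3, Strc (0.590 and -0.817) and Rgs9 (0.598 and -0.771), and just outside were Tbc1d16 (0.603 and -0.576), S100a13 (0.564 and -0.884) and Celsr3 (0.560 and -0.888), as log2 ratios of the rule.

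**Figure D2:**
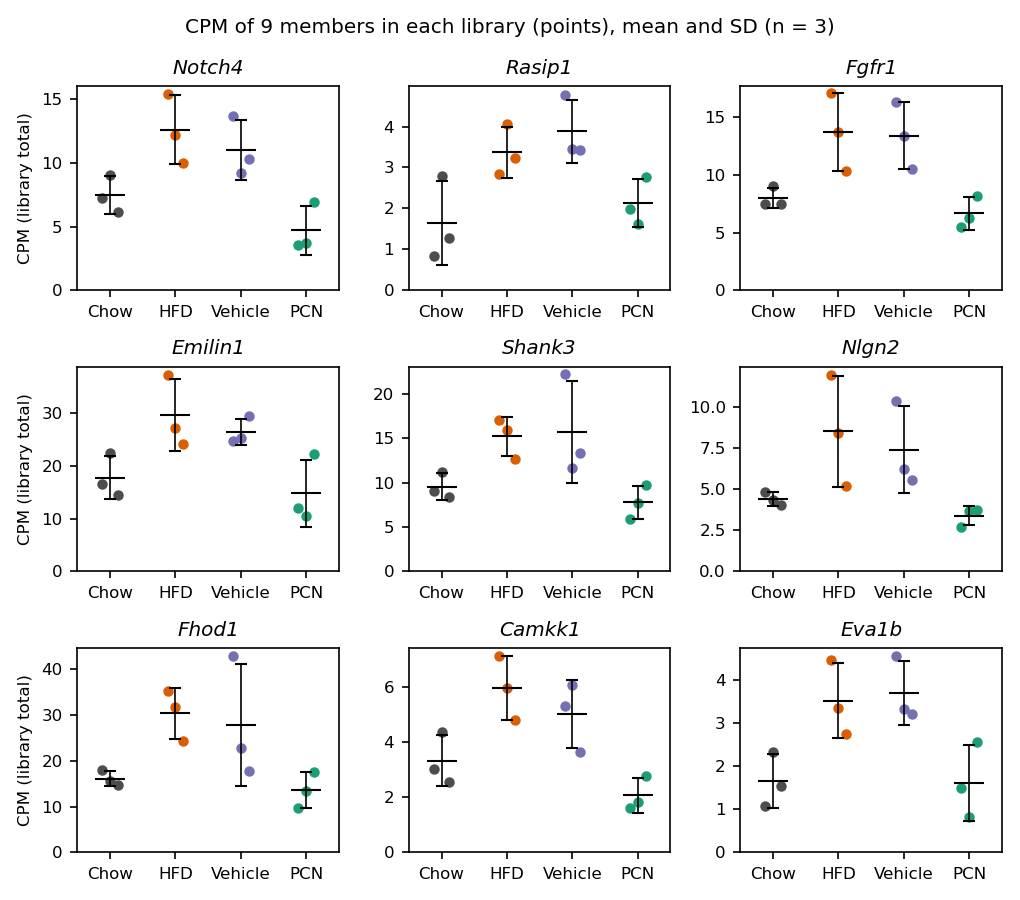
CPM of 9 members in each of the 12 libraries (points) by group, with the mean and SD of 3 libraries. Chow and HFD PCN libraries mostly lie low and HFD and HFD Vehicle libraries high. In Fhod1 the lowest vehicle library (17.7 CPM) lies next to the highest PCN library (17.6 CPM) and below Chow 8 (17.9 CPM). In Camkk1 the lowest vehicle library (3.64 CPM) lies below Chow 17 (4.36 CPM).

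**Figure D3:**
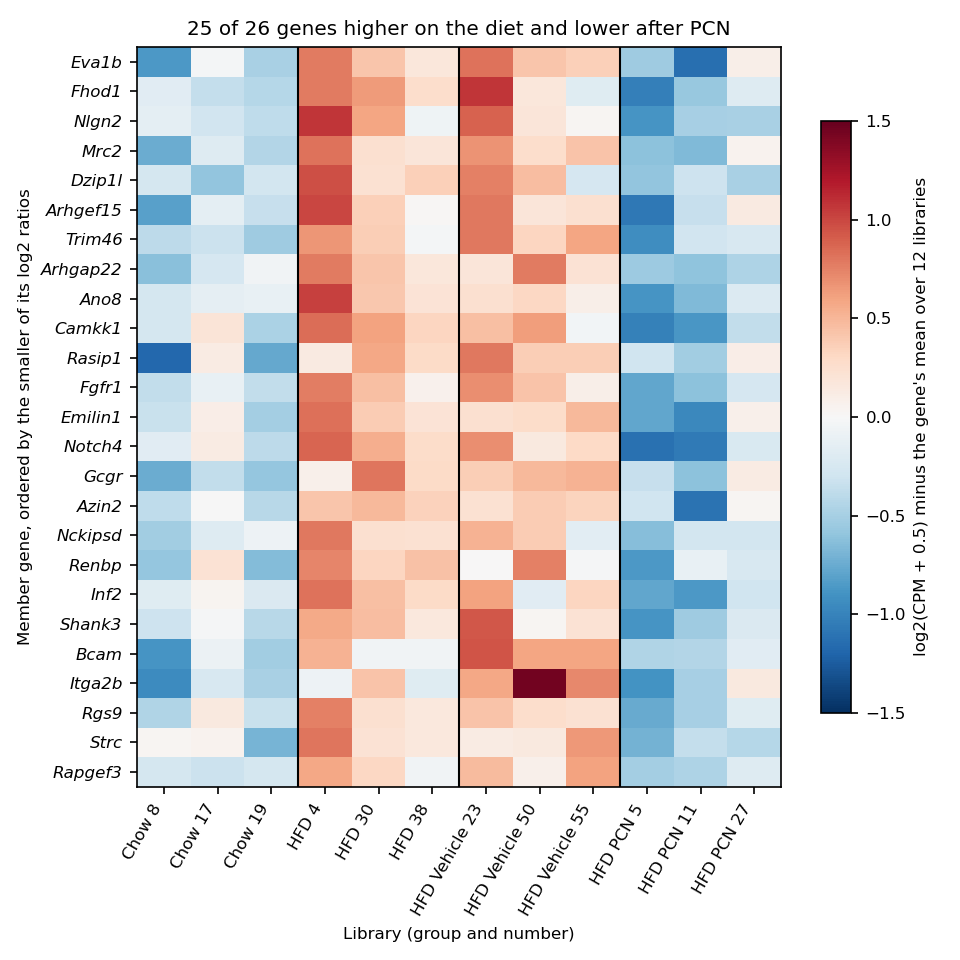
Level of 25 of the 26 members (rows) in each library (columns), as log2 of CPM plus 0.5 minus the gene's mean over the 12 libraries. HFD 4 and Vehicle 23 hold the highest members' medians (0.78 and 0.64) and PCN 5 the lowest (-0.78).

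In the HFD against Chow fit, 0 of 25 members tested passed edgeR's test at an adjusted p under 0.05, where 10 of 15278 genes did (0.0655%), and DESeq2 called 1 member (Fhod1; 0.897% of genes). Their log2 fold changes had a median of 0.96 (0.78 to 1.29; all genes 0.00), adjusted p ran from 0.164 to 0.513, and 24 of 25 had an unadjusted p under 0.05 (10.3% of genes). In HFD PCN against HFD Vehicle, 0 of 26 passed edgeR's test (0.0621% of genes did), and DESeq2 called 5, Bcam, Camkk1, Fgfr1, Itga2b and Notch4 (2.0% of genes). The median log2 fold change was -1.20 (-1.66 to -0.87; all genes -0.01), edgeR's adjusted p ran from 0.231 to 0.283, and 25 of 26 had an unadjusted p under 0.05 (17.9%). That count was 15 without HFD PCN 5 and 14 after GC centring. The share of all genes in these alternative fits is not given here, so whether the fall was particular to the members cannot be said. Without HFD Vehicle 23 and 50 together, which leaves only HFD Vehicle 55, the members' median log2 fold change was -0.83. Without Vehicle 55, edgeR called 3697 of 16789 genes (22.0%), among them 21 members. Both contrasts chose the members, so these counts are descriptions.

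HFD Vehicle and HFD libraries overlapped for 24 of the 26 members, all but Bcam and Itga2b. Over the 12479 genes, every vehicle library lay above every HFD library in 4.62% and below in 3.05%, so most genes overlapped too. For HFD Vehicle against HFD the median log2 fold change of the 26 was 0.02 (-0.33 to 1.0, SE 0.26 to 0.52), with 13 positive and 13 negative. None passed edgeR's test (0 of 16255 genes did, and 29 by DESeq2, none a member), and 1 member, Itga2b, had an unadjusted p under 0.05 (5.86% of genes). Set against Chow, HFD PCN gave a median log2 fold change of -0.13 over the 22 members tested (-0.58 to 0.53), with 0 called by edgeR (0.340% of 15300 genes) and 0 at an unadjusted p under 0.05 (11.8%). Mean CPM after PCN was below the Chow mean for 20 members and above it for 6. The share of all genes with a lower mean is not given here. Over all genes, every PCN library lay below every Chow library in 12.2% and above in 4.26%. In the edgeR fit, with TMM sizes, 14 of the 22 members tested were negative and 8 positive. The rule asked for high values in HFD and in HFD Vehicle and low ones in Chow and HFD PCN, so these 2 comparisons are not independent of the choice, and with these standard errors a difference between them could have been missed. The rule also set part of each order that follows, so the shares of all genes beside them are no measure of enrichment. All 3 HFD and all 3 HFD Vehicle libraries exceeded all 6 Chow and PCN libraries for 17 members, against 39 of all genes (0.313%). Every HFD library exceeded every HFD PCN library for 23 members (8.92% of all genes), not for Arhgef15, Gcgr and Itga2b. Every HFD Vehicle library exceeded every Chow library for 20 (3.32%). In 0 members did every PCN library exceed every Chow library (4.26% of all genes) or every HFD library exceed every vehicle library (3.05%).

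None of the 26 members is on any of 18 cell type lists or 18 pathway lists. Listed collagen, C1q and heat shock genes dropped by symbol could not be members whatever their values. Among them, Col6a1 of the fibroblast and matrix list met every value condition (log2 ratios 0.80 and -0.60). The Wnt and Notch list, which holds other Notch receptors, ligands and targets, had median log2 fold changes of -0.04 over 11 genes on the diet and -0.89 over 13 after PCN, where 12 of 13 were negative and 0 passed edgeR's test. The heat shock and protein folding list stood at -0.34 and -1.81, with 11 of 11 genes negative in each contrast and 0 passing. For HFD Vehicle against HFD, the Wnt and Notch list had a median of 0.41 (13 of 13 positive). The heat shock list had 2.14 there (11 of 11 positive), and 0 genes of either list passed. For HFD PCN against Chow their medians were -0.25 (2 positive, 10 negative) and -0.07 (4 positive, 7 negative). The macrophage list had medians of 0.53 on the diet and -0.33 after PCN over 13 genes, with 1 passing edgeR's test on the diet. The T and NK cell list went the opposite way to the members, with medians of -1.28 on the diet (0 of 10 genes positive) and 1.28 after PCN (10 of 10 positive), and 0 passed edgeR's test in either. Its summed level was 122 to 204 CPM in Chow, 25.4 to 81.9 in HFD, 9.83 to 80.8 in HFD Vehicle and 69.4 to 99.0 in HFD PCN. Paneth cell genes had medians of -0.45 over 7 on the diet and -2.24 over 9 after PCN (9 of 9 negative), and 2.05 over 8 for HFD Vehicle against HFD, with 0 passing. Their summed level was 412 to 966 CPM in Chow, 262 to 683 in HFD, 712 to 2389 in HFD Vehicle and 287 to 660 in HFD PCN. Mature enterocyte genes had medians of 0.04 on the diet and 0.45 after PCN (10 of 10 positive, 0 passing). They summed to 28119 to 36308 CPM in Chow, 17040 to 40223 in HFD, 9471 to 36940 in HFD Vehicle and 29180 to 39445 in HFD PCN. What cell makeup adds to the members' values was not tested. The medians of all genes were 0.00 and -0.01.

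Within groups the members followed the same libraries. HFD 4 was the highest HFD library for 22 of 26 members (84.6%; 23.6% of all genes) and HFD 38 the lowest for 21 (80.8%; 14.9%). HFD Vehicle 23 was the highest vehicle library for 16 (61.5%; 19.5%). In HFD PCN, PCN 27 was the highest for 22 (84.6%; 62.1%) and PCN 5 the lowest for 18 (69.2%; 24.4%). In Chow, Chow 17 was the highest for 19 (73.1%; 42.6%). The rule used these same library values, so the shares beside those of all genes are descriptions. HFD 4 and HFD Vehicle 23 also had the lowest Vil1 of their groups, at 1184 CPM (2201 and 2489 CPM in HFD 30 and 38) and 912 CPM (1945 and 1990 CPM in HFD Vehicle 50 and 55). Mitochondrial rRNA was highest there within each group, at 19.2% (14.4% and 9.05% in the other HFD libraries) and 33.6% (16.7% and 12.7% in the other vehicle libraries). In HFD PCN, where PCN 27 was the highest for most members, Vil1 was 1844, 1500 and 2295 CPM and mitochondrial rRNA 9.94%, 17.4% and 8.69%. In Chow these were 1818, 1975 and 1988 CPM and 17.0%, 11.5% and 10.2%. Their part in the members' values was not tested. Without HFD 4 and HFD Vehicle 23 together, 10 of the 26 stayed in the rule's result.

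The members shared a high GC content, which the rule did not use. Their transcripts had a median of 58.5% GC, from 48.2% (Rgs9) to 63.6% (Rasip1), against 49.7% over 12470 genes, and 23 of 26 lay above the upper quartile of 54.3%. Genes of the mirrored rule had a median of 44.0%. Over all genes, the diet side was met by 3.11% of genes above the upper GC quartile and 0.321% of those below the lower, and the PCN side by 11.4% and 0.994%.

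The libraries differed along the same axis. Each gene's log2 level was set relative to its mean over the 12 libraries, and the median of the highest of 10 GC bins minus that of the lowest was 0.38, 0.42 and 0.08 in HFD, 0.87, 0.40 and -0.20 in HFD Vehicle, -0.61, -0.60 and -0.11 in HFD PCN, and -0.25, 0.04 and -0.41 in Chow. In HFD 4 and HFD Vehicle 23 the lowest bin stood at -0.32 and -0.69, and the highest at 0.06 and 0.17. The members' median deviation was 0.78, 0.41 and 0.18 in HFD and 0.64, 0.35 and 0.27 in HFD Vehicle. It was -0.78, -0.52 and -0.21 in HFD PCN, and -0.37, -0.10 and -0.42 in Chow. Genes above the upper GC quartile had medians of -0.02, 0.13 and 0.17 in HFD and 0.03, 0.16 and 0.05 in HFD Vehicle. These genes had -0.26, -0.42 and 0.12 in HFD PCN, and -0.09, 0.18 and -0.00 in Chow. In HFD their order was the reverse of the members'. Chow 17 and HFD PCN 27 were the highest of their groups for these genes and for the members. The rule itself sets the members' deviations high in HFD and HFD Vehicle and low in Chow and HFD PCN, so their sign by group is no independent sign of a link with GC. For the rule, each library was centred within GC bins relative to the gene means of its own table, not of all 12 libraries. The rule then kept 21 genes, of which 6 were members (Arhgef15, Camkk1, Eva1b, Fgfr1, Notch4 and Rgs9). In edgeR the bins were instead centred over the 6 libraries of each fit. The members' median log2 fold changes there became 0.77 on the diet and -0.77 after PCN.

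**Figure D4:**
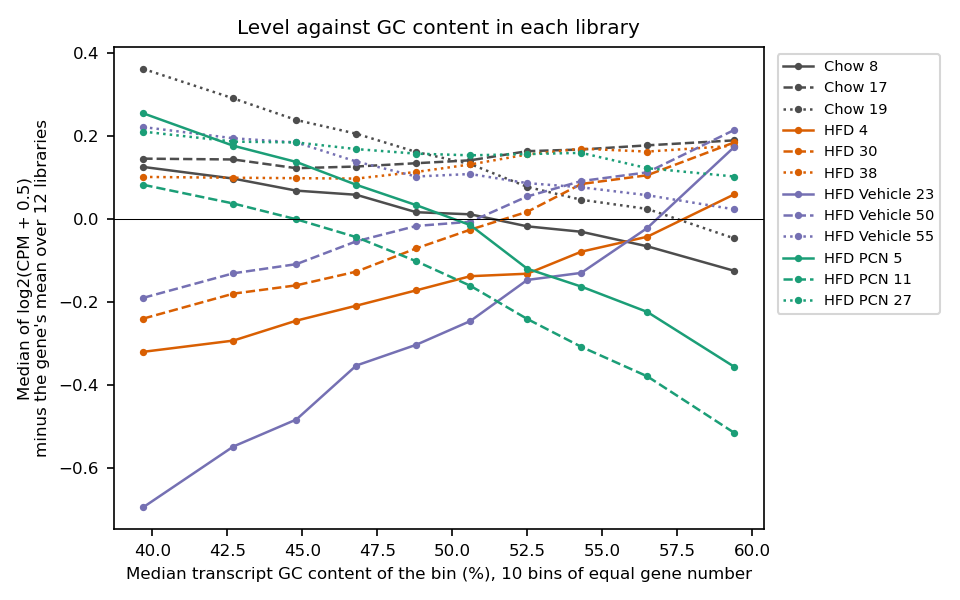
Median deviation of genes in 10 bins of transcript GC (lowest to highest) in each library, in log2 units relative to the mean of the 12 libraries. Highest minus lowest bin runs from 0.87 in Vehicle 23 to -0.61 in PCN 5.

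**Figure D5:**
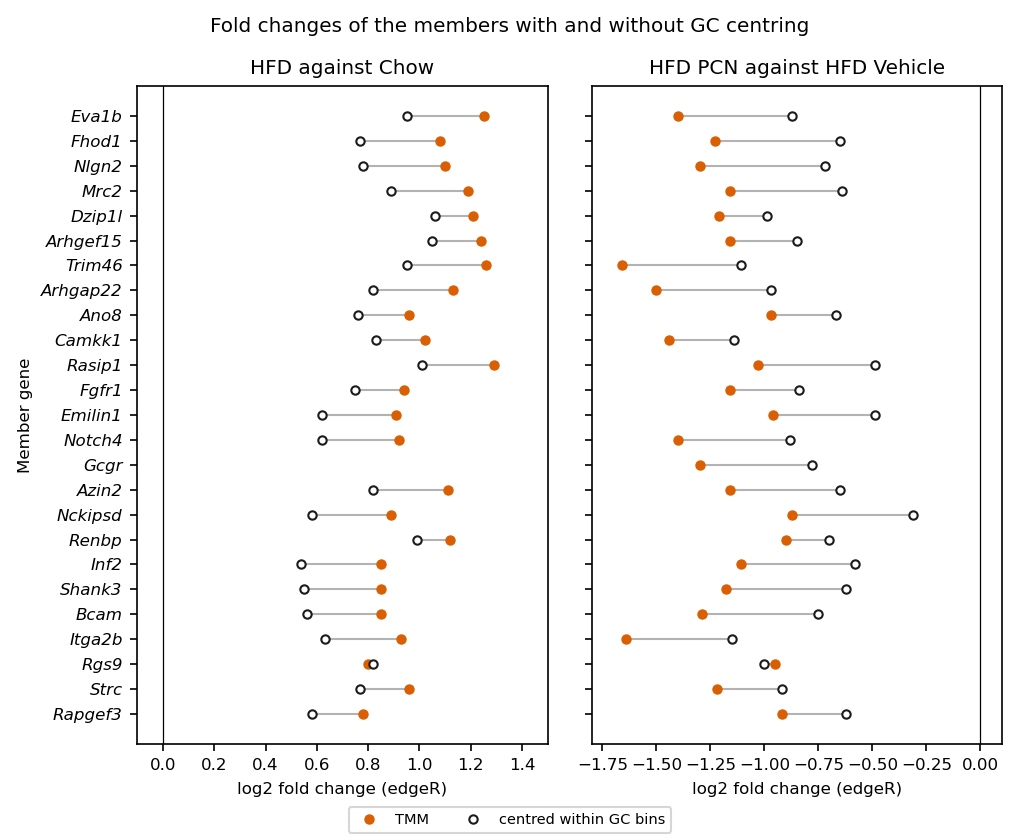
edgeR log2 fold change of 25 of the 26 members before (filled) and after (open) centring within GC bins, for HFD against Chow (left, Gcgr not tested) and HFD PCN against HFD Vehicle (right). Every point keeps its sign, and all PCN values shown move towards 0 except that of Rgs9.

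All 26 members are protein coding (98.2% of all genes are), and they lie on 13 chromosomes, with 7 on chromosome 11. Exons of 10 members overlap exons of genes on the opposite strand, such as Tmem208 for Fhod1, Krtcap2 for Trim46 and Dda1 for Ano8, and Rasip1 also overlaps Izumo1 on its own strand. The strand setting of the counting is not given in the sources used here, so reads of such pairs cannot be told apart. Reads per library ran from 2 to 773 over the members, and 9 members had under 10 reads in at least 1 library.

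Promoter windows of 300 bases, 250 before and 50 after the RefSeq start site, were found for 20 of 26 members in GRCm38.p6. Their median GC was 63.0% (51.3% to 81.0%) against 52.7% over 27018 genes. These 27018 genes were not limited to those at the level minimum, and each gave its first listed window. A member gave the window nearest the 5' end of the gene, so the 2 sets are unlike, here and for the letters below. The Sp1 letters GGGCGG, on either strand, stood in 11 of 20 member windows (55.0%) and in 35.9% of all windows. CCAAT stood in 6 (30.0%, against 37.9%), the E-box CACGTG in 3 (15.0%, against 7.24%), the AP-1 letters TGANTCA in 1, that of Notch4 (5.00%, against 7.94%), TATAAA in 1, that of Rgs9 (5.00%, against 14.2%), and AGAACA in 3 (15.0%, against 19.0%). The CRE letters TGACGTCA and the heat shock letters GAANNTTC stood in 0 of 20, against 1.88% and 7.95% of all windows. The direct repeats bound by PPAR with RXR and by PXR, searched as exact letters, also stood in 0 of 20, and in at most 0.0444% of all windows. A match is a description of these letters and no match says nothing of a factor's binding.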

How the data were processed

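RNA from duodenum was sequenced in 12 libraries, 3 in each of 4 groups. Values are raw read counts per gene deposited by the authors in 2 tables of 6 libraries; the tools named, per the submitters' processing notes, are HISAT2 for reads, HTSeq and DESeq2, with GRCm38 (mm10) as build. Versions and strand setting are not given in the sources used here. Both members and lists were chosen with earlier results of these data known. CPM is the count over the library total of its table. Each comparison was fitted on its 6 libraries with edgeR 4.0.16 (limma 3.58.1, R 4.3.3; filterByExpr, TMM, robust quasi-likelihood test, Benjamini-Hochberg over all genes tested, called under 0.05); comparisons across tables used the joined counts of genes in both. SE is the log2 fold change over the square root of F. The fits were tested on simulated data. DESeq2 1.42.0, an edgeR fit without the filter, a fit of all 12 libraries, and leaving out each library were alternatives; centring within 10 GC bins and leaving out pairs of libraries were added after seeing the data. Members given library by library were the 12 with the largest smaller log2 ratio, the 6 with the highest mean CPM and the 3 nearest the limits; Itga2b and Gcgr were added to these after their values were seen. The others are given as means, except 1 member that is not reported here by name and counts only in the totals. Promoters come from RefSeq (GRCm38.p6).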

Additional observations from a re-analysis of the deposited data

How the results depend on the processing

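Genes kept by the rule numbered 26, and 74 with TMM sizes (22 members), 13 at a minimum of 5 CPM, 0 at a log2 limit of 1, 55 without Vehicle 23 and 50, and 18 to 77 when 1 library was left out. Genes called for HFD against Chow numbered 10, and 137 with DESeq2, 351 without the filter, 2 with all 12 libraries, 5 after GC centring and 4 to 63 with 1 library left out. For HFD PCN against HFD Vehicle they numbered 10, and 322, 843 and 34 with DESeq2, without the filter and with all 12 libraries, 2 without Vehicle 23 and 50, and 0 to 3697 with 1 library left out. For HFD Vehicle against HFD they numbered 0, and 29 with DESeq2, 1 without the filter, 1 with all 12 libraries and 0 to 260. For HFD PCN against Chow they numbered 52, and 254, 261 and 15 under the same alternatives, 80 after GC centring, and 8 to 349. The cause of these changes was not tested. Of the single-member fold changes, 491 alternative values kept their direction and call, 44 became called, and 0 reversed. The rule had separated the groups in every library, so a reversal was hardly possible and its absence is no sign of stability. No paired analysis was possible because no library number is shared between groups. Depth limits the members with few reads most: Gcgr had as few as 2 reads in a library.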

Other observations

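After centring within GC bins, 15 genes that were not members met the rule, among them S100a13, which lay just outside the limits before. They are named here after their values were seen: Arntl2, Ccdc141, Cd80, Cdh6, Lhfp, Lif, Mark1, Mest, Ndufaf5, Pqlc1, Ptgs1, S100a13, Snord13, Ssc5d and Tulp3. Their transcript GC ran from 40.4% (Lhfp) to 60.6% (Ssc5d). Among the genes dropped by symbol, Col18a1, a basement membrane collagen, stood at 23.4, 44.7 and 22.7 CPM in Chow, 53.0, 65.6 and 65 in HFD, 37.0, 33.5 and 56.0 in HFD Vehicle, and 27.9, 15.6 and 31.4 in HFD PCN. Its vehicle libraries lay below its HFD libraries, except that HFD Vehicle 55 exceeded HFD 4.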
